A study of Mus musculus with 17 samples.

Results

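The genes described here encode 7 factors that act on nerve and 2 receptors for such factors: Bdnf, Ntf3, Ntf5, Gdnf, Nrtn, Cntf and Sema3a, with the receptors Ntrk2 and Gfra1. They were taken by symbol from the 36172 rows of a gene table of the EDL (the extensor digitorum longus, which lifts the toes and is built mainly of fast fibres), measured by RNA sequencing in 17 aged mice, and all 9 symbols were found, 1 row each. Hand2 encodes a transcription factor that sympathetic neurons need for their noradrenergic identity, and the study's title is about keeping such neurons so that muscle is not lost with age. Mice given a Hand2 vector numbered 7 (3 males and 4 females, of which 4 animals were 22 and 3 were 23 months old), and mice given an empty vector numbered 10 (5 males and 5 females, of which 3 animals were 22 and 7 were 23 months old). The labels give no strain, genotype, vector type, promoter or route. The 23-month females with the empty vector are replicates 3, 4 and 5, and the 22-month males are Hand2 replicate 4 and empty-vector replicate 10.

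Most neurotrophic factors are small secreted proteins, made by the tissues that neurons reach, by Schwann cells and by neurons themselves. They support neuronal survival, branching and synapses. The neurotrophins Bdnf and Ntf5 (neurotrophin-4) signal through the tyrosine kinase TrkB, encoded by Ntrk2, and Ntf3 signals mainly through TrkC. Gdnf and Nrtn bind the membrane-anchored co-receptors GFRα1 and GFRα2, which present them to the kinase RET, and Cntf signals through a receptor complex of CNTFR, LIFR and gp130. Sema3a is a secreted guidance protein that repels growing axons through neuropilin and plexin receptors. Motor, sensory and sympathetic axons all end in muscle.

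Libraries held 19181208 to 30942818 estimated counts each. The Hand2 transcript averaged 6.50 ± 9.30 CPM (counts scaled to effective library size) in Hand2-vector muscles (SD, n = 7) and 0.440 ± 0.253 CPM in empty-vector muscles (SD, n = 10), with every Hand2-vector value above every empty-vector value. The Hand2-vector mean rests on replicates 7 and 4, at 26.3 and 10.2 CPM, and the median was 2.04 CPM. The remaining Hand2-vector muscles ran from 1.02 to 3.22 CPM, and the highest empty-vector muscle was at 0.940 CPM. The 8 marker genes of skeletal muscle fibres (such as Acta1, Ckm and the fast myosin Myh4) summed to 74858 to 93902 CPM over all libraries. The 9 markers of sympathetic neurons summed to 5.74 to 12.5 CPM in Hand2-vector muscles and 6.45 to 9.38 CPM in empty-vector muscles. Only 3 of these 9 markers passed the low-count filter, so the sum is a weak measure of sympathetic nerve in the muscle. Of those markers, Th, which makes catecholamines, was at 0 in some libraries of both groups. In whole muscle, fewer cells of a type and less RNA per cell cannot be told apart, and neither can the fibre, nerve, Schwann or connective-tissue source of these transcripts.

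All 9 genes were above 3 counts in all 17 libraries and all 9 passed the filter on low counts. The lowest count of any of them was 26.5, for Sema3a, and the highest was 433, for Gdnf. Levels between genes can be set side by side only per length. Per kilobase of annotated exon, Nrtn had the highest level at 2.87 ± 0.58 CPM, followed by Cntf at 1.98 ± 0.45 and Ntf5 at 1.97 ± 0.60 CPM per kilobase (SD, n = 17). Next in order came Ntf3 at 1.66 ± 0.37, Gdnf at 1.38 ± 0.74 and Gfra1 at 1.21 ± 0.31 CPM per kilobase (SD, n = 17). Bdnf at 0.491 ± 0.302, Ntrk2 at 0.374 ± 0.089 and Sema3a at 0.163 ± 0.052 CPM per kilobase closed the order (SD, n = 17). Of the 8 pairs of neighbours in this order, 6 overlapped within 1 SD, and the 2 that did not were Gfra1 above Bdnf and Ntrk2 above Sema3a. Per kilobase of the longest annotated transcript instead, Ntf5 (2.66) stood above Cntf (1.98), Gfra1 (1.42) above Gdnf (1.38), and Ntrk2 (0.825) above Bdnf (0.716 CPM per kilobase). Sema3a stayed lowest, at 0.382 CPM per kilobase. The annotation used for lengths starts Sema3a at 13125414, before its counted row at 13396784, so its exon length takes in bases outside that row. The place of Cntf, also against Nrtn, depends on how reads were divided with U05342, an overlapping row described below. U05342 averaged 1.84 CPM and Cntf 2.13 CPM (n = 17). Counted together over the Cntf exon length of 1073 bases, they would put Cntf above Nrtn. Whether the counts of U05342 belong to Cntf is not known.

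**Figure D1:**
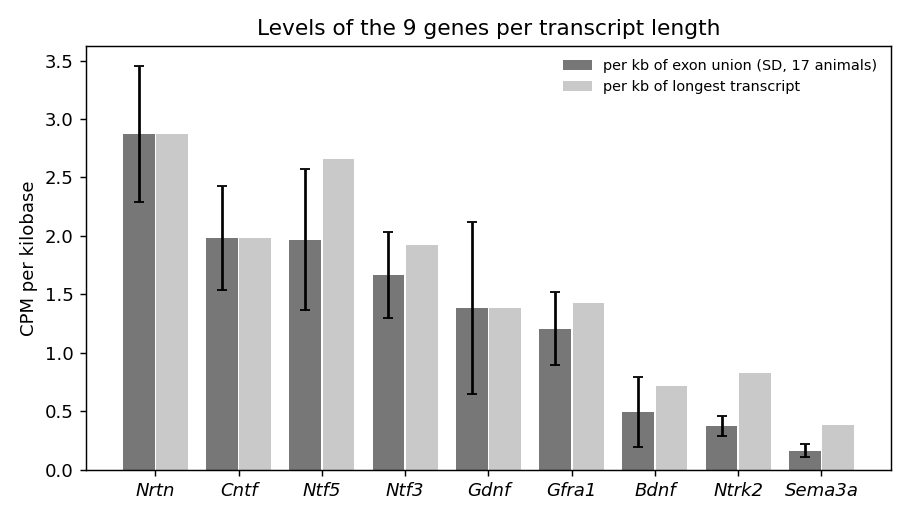
Level of each gene in CPM per kilobase (vertical axis), averaged over 17 muscles, with dark bars per kilobase of exon union (error bars, SD) and light bars per kilobase of the longest annotated transcript. With the counts as deposited, Nrtn is highest at 2.87 and Sema3a lowest at 0.163 CPM per kilobase of exon union.

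None of the 9 genes passed the 5% threshold between Hand2-vector and empty-vector muscles, in edgeR's quasi-likelihood test with Benjamini-Hochberg adjustment over 13965 genes. The share of all tested genes called in that comparison was also 0%. At an unadjusted p under 0.05 the count was 1 of the 9 genes (Gfra1) and 705 of all genes, and DESeq2 called 1 gene in all, which was Hand2 itself. Between males and females none of the 9 passed either, while 5.63% of all tested genes did (786 genes, 406 higher and 380 lower in males). At an unadjusted p under 0.05 there were 2 of the 9 in that comparison, Cntf and Gdnf, and 3017 of the 13965 genes, a like share. The test of whether the vector difference itself differed between the sexes called 0 of the 9 genes and 0% of all genes, with 0 of the 9 and 474 of all genes at an unadjusted p under 0.05. The median log2 fold change of the 9 genes was -0.02 for Hand2 over empty vector, against -0.004 for all genes tested, and -0.06 for male over female, against 0.0006 for all genes.

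**Figure D2:**
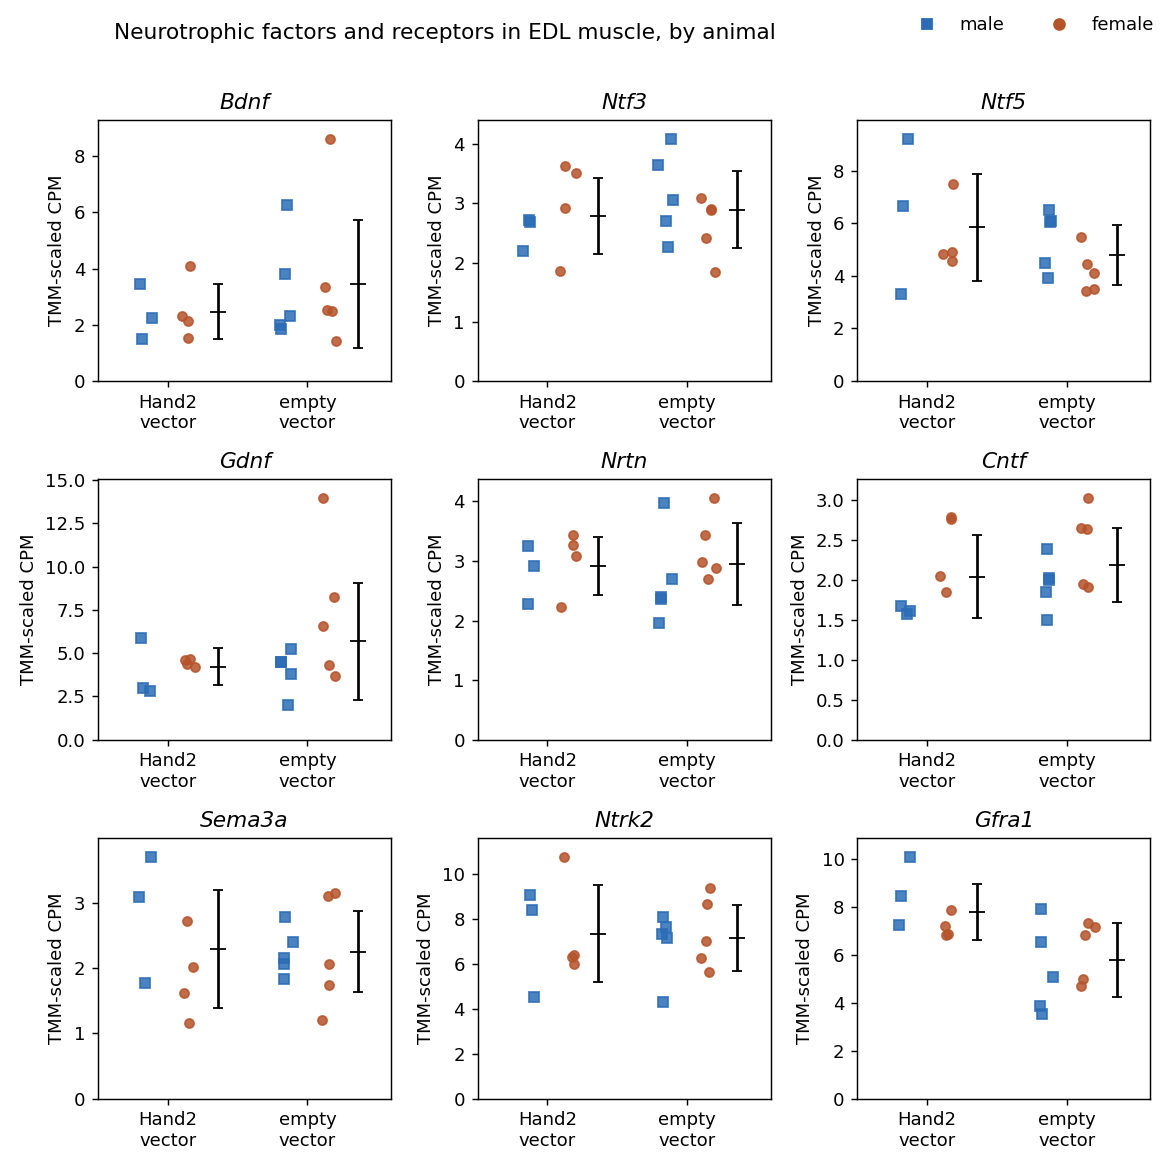
TMM-scaled CPM of each gene (vertical axes, from 0) in every muscle, with Hand2-vector animals left and empty-vector animals right, males as squares and females as circles. Horizontal ticks and bars give the group mean and SD (n = 7 and n = 10), and in all 9 panels the 2 groups overlap.

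Bdnf, the neurotrophin best known for activity-dependent release (chromosome 2, 109674700 to 109727043, plus strand, mm10), varied most between animals in relation to its mean, with a coefficient of variation of 61.4% over the 17 muscles. It ran from 1.48 to 4.11 CPM with a median of 2.25 CPM in Hand2-vector muscles, and from 1.42 to 8.60 CPM with a median of 2.51 CPM in empty-vector muscles. The groups overlapped, and the 2 highest values were those of empty-vector replicates 2 (female, 8.60 CPM) and 10 (male, 6.27 CPM). The log2 fold change of Bdnf for Hand2 over empty vector was -0.48 ± 0.36 (SE; 95% interval -1.24 to 0.27; edgeR adjusted p = 0.921). Without empty-vector replicate 2 it was -0.18, and without replicate 10 it was -0.32. Empty-vector replicates 2 and 10 also had the lowest sums of the 7 fibroblast markers, 522 and 531 CPM, where the other 15 muscles ran from 594 to 1390 CPM, and the part of this in the Bdnf values was not tested.

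Ntf3, a factor for muscle-spindle sensory neurons that muscle is known to make (chromosome 6, 126101412 to 126166744, minus strand), was among the steadiest of the 9 genes, with a coefficient of variation of 22.1%. It ran from 1.87 to 3.63 CPM with a median of 2.71 CPM in Hand2-vector muscles and from 1.85 to 4.08 CPM with a median of 2.90 CPM in empty-vector muscles. Its log2 fold change for Hand2 over empty vector was -0.04 ± 0.17 (SE; 95% interval -0.39 to 0.32; edgeR adjusted p = 0.988). The interval spans a 0.762-fold to a 1.25-fold level.

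Ntf5, the second TrkB ligand (chromosome 7, 45413695 to 45417179, plus strand), ran from 3.30 to 9.18 CPM with a median of 4.89 CPM in Hand2-vector muscles and from 3.41 to 6.51 CPM with a median of 4.45 CPM in empty-vector muscles. The 3 highest muscles were Hand2 replicates 6 (male, 9.18 CPM), 5 (female, 7.49 CPM) and 7 (male, 6.65 CPM), and Hand2 replicate 4 had the lowest value of all. Replicates 5, 6 and 7 are the 23-month Hand2-vector animals and also the 3 smallest libraries of all, at 20583202, 22051694 and 19181208 estimated counts, and the part of depth was not tested. The groups overlapped, and the log2 fold change was 0.31 ± 0.18 (SE; 95% interval -0.07 to 0.69; edgeR adjusted p = 0.921). Without Hand2 replicate 6 it was 0.18, and with a term for age it was 0.33. In males Ntf5 was 3.30, 9.18 and 6.65 CPM with the Hand2 vector and 3.90, 6.51, 6.07, 4.47 and 6.03 CPM with the empty vector. In females it was 4.55, 4.89, 4.83 and 7.49 CPM with the Hand2 vector and 4.11, 5.49, 3.48, 3.41 and 4.44 CPM with the empty vector. The log2 fold change for male over female was 0.31 ± 0.18 (SE; edgeR adjusted p = 0.321). Ntf5 lies 2312 bases beyond the end of Kcna7, a potassium channel gene on the same strand that held 33.7 to 81.9 times the counts of Ntf5, and whether reads of Kcna7 were counted for Ntf5 was not tested.

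Gdnf, a survival factor for motor neurons (chromosome 15, 7811011 to 7837575, plus strand), spanned the widest fold range of the 9 genes, 7.03-fold from the lowest to the highest muscle. It ran from 2.83 to 5.90 CPM with a median of 4.37 CPM in Hand2-vector muscles and from 1.98 to 13.95 CPM with a median of 4.50 CPM in empty-vector muscles. The medians lay close together, and the 3 highest muscles were the 23-month empty-vector females, replicates 3, 4 and 5, at 13.95, 8.24 and 6.57 CPM. The log2 fold change for Hand2 over empty vector was -0.41 ± 0.27 (SE; 95% interval -0.98 to 0.16; edgeR adjusted p = 0.921), and without those 3 animals it was 0.050. In females Gdnf was 4.21, 4.61, 4.67 and 4.37 CPM with the Hand2 vector and 4.33, 3.67, 13.95, 8.24 and 6.57 CPM with the empty vector. In males it was 5.90, 2.83 and 2.98 CPM with the Hand2 vector and 1.98, 4.49, 4.50, 5.24 and 3.82 CPM with the empty vector. For male over female the log2 fold change was -0.61 ± 0.26 (SE; 95% interval -1.16 to -0.05), which did not pass (edgeR adjusted p = 0.189) and was -0.11 without the 3 empty-vector females.

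The 9 immediate-early genes measured beside them (Fos, Fosb, Egr1, Egr3, Junb, Jun, Atf3, Ier2 and Nr4a1), which cells switch on within minutes of stimulation, summed to 2569 CPM in empty-vector replicate 3 and 1378 CPM in empty-vector replicate 4. In the other 15 muscles the sum ran from 264 to 583 CPM, and empty-vector replicate 5 was within that range at 430 CPM. The muscles highest and next highest in Gdnf were thus also highest and next highest in these genes. They were also the highest and next highest in the sum of the 11 Schwann cell markers, at 338 and 325 CPM. Empty-vector replicate 5 was at 299 CPM in that sum, just below Hand2 replicate 5 at 300 CPM. Sums of 4 red blood cell markers were 1582, 2412 and 1546 CPM in empty-vector replicates 3, 4 and 5, and 2286 CPM in Hand2 replicate 6. The part of any of these in the Gdnf values was not tested. Bdnf did not follow the same animals, at 2.48 CPM in replicate 3 and 1.42 CPM, the lowest of all 17 muscles, in replicate 4.

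**Figure D3:**
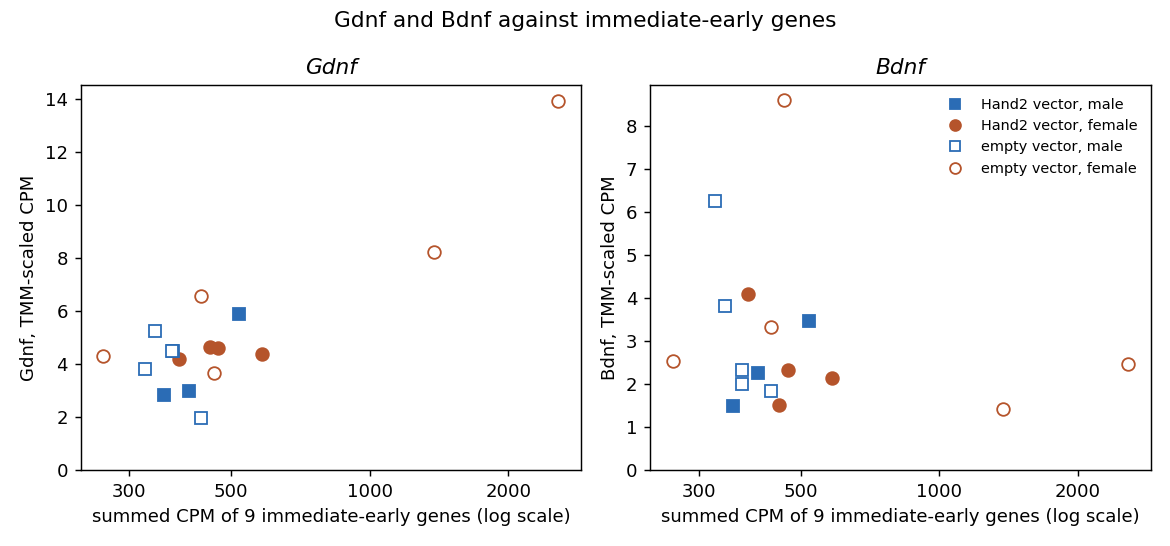
TMM-scaled CPM of Gdnf (left) and Bdnf (right) on the vertical axes against the summed CPM of 9 immediate-early genes (horizontal axes, log scale), 1 point per muscle, with filled symbols for the Hand2 vector and open ones for the empty vector, squares for males and circles for females. The 2 muscles with sums of 1378 and 2569 CPM hold 8.24 and 13.95 CPM of Gdnf, and 1.42 and 2.48 CPM of Bdnf.

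RefSeq promoter windows (build GRCm38.p6, 250 bases before to 50 after a start site) matched 8 of the 9 genes, Ntf5 being the one without, and gave 16 windows, 7 of them for Bdnf. They were searched on both strands for the cAMP response element TGACGTCA, for its core (TGACG or CGTCA, which the full element contains) and for the AP-1 element (TGAGTCA or TGACTCA), the letters bound by factors of the Creb and Fos-Jun families. None of the 16 windows held the full element, which 1.79% of all 32851 windows in the table hold. The core was in 1 Bdnf window and 1 Gdnf window (20.8% of all windows hold it), and the AP-1 element was in the Cntf window (5.20% of all windows). These 3 windows are shown because they alone of the 16 hold a searched element, set in capitals and read on the gene's strand. They are chr2:109692186-109692485 (plus strand) for Bdnf, with the core at -35 from the start site, chr15:7809798-7810097 (plus strand) for Gdnf, with the core at -50, and chr19:12765583-12765882 (minus strand) for Cntf, with the AP-1 element at -245. The Gdnf window ends before the counted Gdnf row, which starts at 7811011, so its start site lies outside that row. A match in letters is a description of the window and shows no binding.
Bdnf: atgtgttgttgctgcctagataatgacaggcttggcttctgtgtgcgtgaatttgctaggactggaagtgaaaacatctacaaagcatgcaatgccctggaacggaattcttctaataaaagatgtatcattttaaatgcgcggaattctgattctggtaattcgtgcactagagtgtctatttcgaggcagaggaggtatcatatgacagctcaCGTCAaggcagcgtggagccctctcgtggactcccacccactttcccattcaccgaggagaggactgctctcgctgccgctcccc
Gdnf: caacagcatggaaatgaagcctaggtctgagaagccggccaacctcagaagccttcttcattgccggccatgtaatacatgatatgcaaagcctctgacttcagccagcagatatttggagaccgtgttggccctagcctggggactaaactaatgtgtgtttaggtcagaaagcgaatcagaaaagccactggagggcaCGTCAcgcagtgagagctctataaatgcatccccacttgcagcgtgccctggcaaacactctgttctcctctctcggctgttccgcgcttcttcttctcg
Cntf: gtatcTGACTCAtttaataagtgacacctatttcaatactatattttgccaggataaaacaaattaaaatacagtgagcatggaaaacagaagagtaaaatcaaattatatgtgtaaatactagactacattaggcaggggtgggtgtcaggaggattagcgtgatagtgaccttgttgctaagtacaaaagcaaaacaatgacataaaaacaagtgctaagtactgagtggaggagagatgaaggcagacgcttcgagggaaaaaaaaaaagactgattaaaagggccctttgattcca

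Nrtn, the GDNF relative that prefers GFRα2 (chromosome 17, 56751325 to 56757530, minus strand), ran from 2.24 to 3.44 CPM with a median of 3.09 CPM in Hand2-vector muscles and from 1.95 to 4.05 CPM with a median of 2.79 CPM in empty-vector muscles. It had the lowest coefficient of variation of the 9 genes, 20.3%, and its Hand2-vector values lay inside the empty-vector range. Its log2 fold change for Hand2 over empty vector was -0.02 ± 0.15 (SE; 95% interval -0.33 to 0.30; edgeR adjusted p = 0.994). For male over female it was -0.20 ± 0.15 (SE; edgeR adjusted p = 0.463).

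Cntf, a cytokine that Schwann cells of peripheral nerve are known to hold (chromosome 19, 12763528 to 12765632, minus strand), had the smallest p of the 9 genes between the sexes. In males it was 1.61, 1.67 and 1.57 CPM with the Hand2 vector and 1.497, 2.02, 1.997, 1.85 and 2.38 CPM with the empty vector. In females it was 2.78, 2.04, 2.76 and 1.85 CPM with the Hand2 vector and 1.94, 1.91, 2.64, 2.63 and 3.02 CPM with the empty vector. All 8 males lay below the female median of 2.63 CPM, 4 of them below the lowest female, and the sexes overlapped. The log2 fold change for male over female was -0.41 ± 0.14 (SE; 95% interval -0.70 to -0.11), which missed the threshold (edgeR adjusted p = 0.0978). Over the alternatives it ran from -0.46 to -0.29, with adjusted p from 0.060 to 0.448. With the vectors it ran from 1.57 to 2.78 CPM in Hand2-vector muscles and from 1.497 to 3.02 CPM in empty-vector muscles, with a log2 fold change of -0.14 ± 0.14 (SE; edgeR adjusted p = 0.935).

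Over all genes, 380 of 13965 fell in males. Of the 11 Schwann cell markers 1 fell in males, 0 rose and 10 had a negative log2 fold change (median -0.28), and their sum ran from 209 to 283 CPM in males and from 205 to 338 CPM in females. All 7 slow-fibre markers fell in males, with sums of 135 to 326 CPM in males and 282 to 1456 CPM in females. Of the 6 adipocyte markers 5 fell in males, with sums of 9.32 to 31.2 CPM in males and 24.3 to 72.5 CPM in females. Their part in the Cntf values was not tested.

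Cntf lies within another row of the table, U05342, which runs from 12763528 to 12796123 on the same strand and spans both Cntf and its neighbour Zfp91. The sources used here do not list the exons of U05342. The estimated count of U05342 was 0.692 to 0.916 times that of Cntf (median 0.870), a difference of 3.96 to 12.9 counts per library, and its Spearman correlation with Cntf over the 17 libraries was 0.99. Zfp91 held 105 to 240 times the counts of Cntf, and its counted row ends 1306 bases from that of Cntf. The annotation used for lengths instead runs Zfp91 from 12763660 to 12796126, a span that takes in Cntf at 12763660 to 12765632. Whether reads of Zfp91 were counted for Cntf was not tested. The sources used here do not say how reads were divided between overlapping rows, so the level of Cntf is uncertain. With the counts of U05342 added to those of Cntf, an alternative chosen after seeing the data, the log2 fold change was -0.42 for male over female (edgeR adjusted p = 0.0843) and -0.16 for Hand2 over empty vector (edgeR adjusted p = 0.929).

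**Figure D4:**
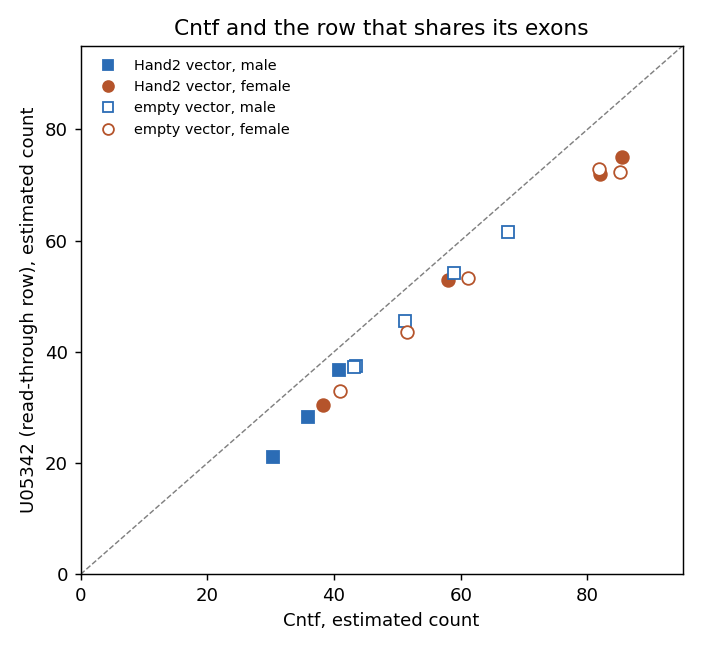
Estimated counts of U05342 (vertical axis) against those of Cntf (horizontal axis) in each of the 17 libraries, with filled symbols for the Hand2 vector, open symbols for the empty vector, squares for males, circles for females and a dashed line of equal counts. All points lie below and near the line, at ratios of 0.692 to 0.916.

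Sema3a, the secreted semaphorin (chromosome 5, 13396784 to 13603485, plus strand), ran from 1.15 to 3.70 CPM with a median of 2.01 CPM in Hand2-vector muscles and from 1.21 to 3.15 CPM with a median of 2.11 CPM in empty-vector muscles. Both the lowest and the highest of the 17 muscles carried the Hand2 vector. The log2 fold change for Hand2 over empty vector was 0.02 ± 0.22 (SE; 95% interval -0.45 to 0.49; edgeR adjusted p = 0.994). In males Sema3a was 3.70, 1.76 and 3.09 CPM with the Hand2 vector and 2.05, 2.40, 2.78, 2.15 and 1.82 CPM with the empty vector, and in females it was 1.15, 1.62, 2.01 and 2.72 CPM with the Hand2 vector and 3.10, 1.21, 2.06, 3.15 and 1.74 CPM with the empty vector. The vector difference in males minus that in females was 0.63 ± 0.44 on the log2 scale (SE; edgeR adjusted p = 0.9997).

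Gfra1, the co-receptor for GDNF (chromosome 19, 58236692 to 58454466, minus strand), had the smallest p of the 9 genes between the vectors. It ran from 6.83 to 10.07 CPM with a median of 7.24 CPM in Hand2-vector muscles and from 3.54 to 7.90 CPM with a median of 5.81 CPM in empty-vector muscles. All 7 Hand2-vector muscles lay above the empty-vector mean of 5.79 CPM and 2 lay above the highest empty-vector muscle, while 6 of the 10 empty-vector muscles lay below the lowest Hand2-vector one. The groups overlapped in the remaining animals. The log2 fold change was 0.42 ± 0.16 (SE; 95% interval 0.09 to 0.75), a 1.34-fold level, and it did not pass once adjusted over all genes (edgeR adjusted p = 0.921, rank 179 of 13965). Over the alternatives it ran from 0.34 to 0.51, with adjusted p from 0.761 to 0.999.

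In males Gfra1 was 10.07, 7.24 and 8.43 CPM with the Hand2 vector and 7.90, 5.07, 6.54, 3.87 and 3.54 CPM with the empty vector. In females it was 6.86, 6.83, 7.85 and 7.19 CPM with the Hand2 vector and 6.83, 4.98, 7.31, 7.16 and 4.69 CPM with the empty vector. The difference between these 2 vector effects was 0.46 ± 0.31 on the log2 scale (SE; edgeR adjusted p = 0.9997). The sums of 7 fibroblast markers ran from 755 to 1390 CPM in Hand2-vector muscles and from 522 to 1169 CPM in empty-vector muscles, and all 7 markers had a positive log2 fold change with the vector (median 0.25), though 0 passed the threshold. The 4 empty-vector muscles lowest in Gfra1, replicates 10, 9, 5 and 2, were also the 4 lowest in that sum, at 531, 727, 594 and 522 CPM. The 2 muscles highest in Gfra1, Hand2 replicates 4 and 7, were also the highest in that sum, at 1184 and 1390 CPM. The 7 macrophage markers also all had a positive log2 fold change with the vector (median 0.20, 0 past the threshold), with sums of 121 to 177 CPM in Hand2-vector muscles and 72.2 to 199.7 CPM in empty-vector muscles. Empty-vector replicates 9, 10 and 2 had the lowest macrophage sums, at 72.2, 86.3 and 107 CPM, while replicate 5 was at 146 CPM. Hand2 replicates 4 and 7 were also the 2 muscles highest in the Hand2 transcript, at 10.2 and 26.3 CPM. The part of these cells and of the Hand2 level in the Gfra1 values was not tested.

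Ntrk2, the TrkB receptor gene (chromosome 13, 58806596 to 59129967, plus strand), ran from 4.50 to 10.74 CPM with a median of 6.41 CPM in Hand2-vector muscles and from 4.28 to 9.37 CPM with a median of 7.23 CPM in empty-vector muscles. The counts are per gene, so the full-length and the truncated forms of the receptor cannot be told apart. Its log2 fold change for Hand2 over empty vector was 0.03 ± 0.17 (SE; 95% interval -0.32 to 0.39; edgeR adjusted p = 0.990), and for male over female it was -0.06 ± 0.17 (SE; edgeR adjusted p = 0.868).

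**Figure D5:**
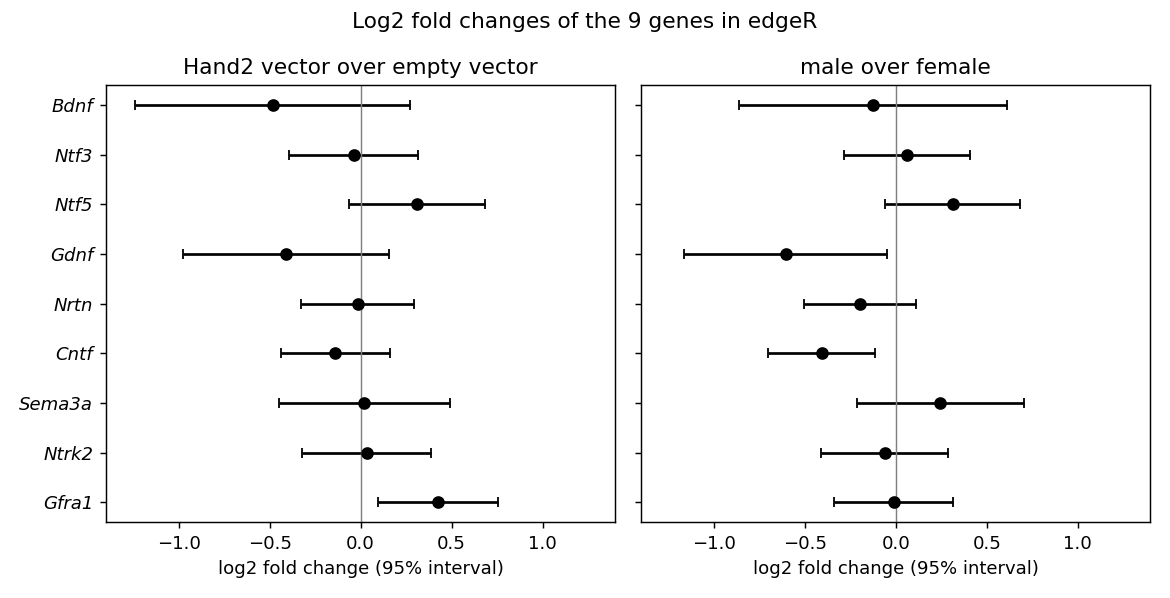
Log2 fold change (horizontal axes) of the 9 genes for Hand2 vector over empty vector (left) and male over female (right), with 95% intervals derived from the edgeR tests. The grey line marks 0. The intervals of Gfra1 on the left (0.09 to 0.75) and of Gdnf and Cntf on the right leave out 0, and none of these passed the 5% threshold after adjustment over all genes.

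The rest of the pathway was described with 48 further genes: the other ligands, receptors, class 3 semaphorins and the proteases that cut neurotrophin precursors. Of these 42 passed the low-count filter and 6 did not. Between the vectors 0 of the 42 rose and 0 fell, with 2 at an unadjusted p under 0.05 beside 705 of the 13965 genes tested. The interaction called 0 of the 42, with 3 at an unadjusted p under 0.05 beside 474 of the 13965.

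Ngfr, the receptor p75 that binds all neurotrophins, had the largest log2 fold change of the 42 genes between the vectors, 1.15 ± 0.50 (SE; edgeR adjusted p = 0.921). It was 1.43, 2.67, 1.49, 2.05, 4.96, 1.76 and 16.3 CPM in Hand2-vector replicates 1 to 7, and ran from 0.773 to 3.36 CPM in empty-vector muscles. The value rests on Hand2 replicate 7, without which the log2 fold change was 0.24. That muscle was also the highest in the Hand2 transcript, and the part of this in the Ngfr value was not tested. Among the neighbours of Cntf in signalling, Cntfr, the ligand-binding receptor subunit, stood at -0.55 ± 0.28 on the log2 scale between the vectors (SE; edgeR adjusted p = 0.921).

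Between the sexes 11 of the 42 genes were at an unadjusted p under 0.05, beside 3017 of the 13965 genes tested. After adjustment 1 of the 42 genes rose in males and 0 fell, against 5.63% called over all genes. It was Lifr, the receptor subunit that carries signals of LIF, cardiotrophin and CNTF. Lifr ran from 70.4 to 99.6 CPM with a median of 84.0 CPM in males and from 58.3 to 72.4 CPM with a median of 66.6 CPM in females, and 7 of the 8 males lay above the highest female. Its log2 fold change for male over female was 0.36 ± 0.06 (SE; 95% interval 0.23 to 0.48; edgeR adjusted p = 0.00137), and it passed under every alternative run, with 0.32 to 0.39. The CNTF family receptors as a set, which also holds receptors of related cytokines, did not follow Lifr. Of these 5 genes, 1 had a positive log2 fold change, which was Lifr itself, and 4 a negative one (median -0.19). At an unadjusted p under 0.05 there were 4 of the 5, beside 3017 of the 13965 genes tested. Their sum ran from 310 to 457 CPM in males and from 321 to 417 CPM in females. Sort1, the neurotrophin-precursor receptor sortilin, did not pass at 0.20 ± 0.09 (SE; edgeR adjusted p = 0.188).

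The genes whose order over the 17 muscles was most like that of each of the 9 were sought among 11525 genes with a mean of at least 1 CPM, by Spearman correlation of log2 CPM, as a description. The closest likeness was that of Cntf to U05342 (0.99), the row that overlaps it, followed for Cntf by Prr24 (0.86) and Eif4ebp1 (0.85). Sema3a was nearest to Chad (0.90), Egfl6 (0.88) and Nid2 (0.88), and Gdnf to Crebbp (0.90), Srsf5 (0.87) and Hnrnph2 (0.86). Ntrk2 was nearest to Cercam (0.85), Mfap4 (0.84) and Ogn (0.82), and Gfra1 to Zfp81 (0.84), Gem (0.82) and Loxl2 (0.79). Nrtn was nearest to Srsf4 (0.83), Ube2g2 (0.78) and Rrp12 (0.78), and Ntf3 to Tmem161b (0.83), Tmem120b (0.76) and Tmem9b (0.76). Bdnf was nearest to Pth1r (0.81), Ralb (0.81) and Twf2 (0.80), and Ntf5 to Pianp (0.80), Zfp14 (0.79) and Trim45 (0.78). These correlations share the depth and composition of the same 17 libraries.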

How the data were processed

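EDL muscle RNA of 17 mice was sequenced from Illumina TruSeq v2 libraries, per the labels' protocols. The build was mm10, per the submitters' processing notes, and RefSeq genes were used in a re-alignment, per the file headers. The sources used here name neither aligner nor counter, nor whether strand was used. The authors deposited estimated counts per gene, unscaled, and 25.5% to 29.3% of the nonzero ones were whole (tolerance 0.001). A second set of columns that the authors deposited holds scaled log2 values, used for 1 alternative; the origin of their scaling factor is unknown.

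Groups are the labelled vectors. Estimated counts were rounded, filtered by filterByExpr with vector-by-sex groups (13965 of 36172 rows kept), scaled by TMM and tested with edgeR 4.0.16 under R 4.3.3 (robust quasi-likelihood F tests). Vector and sex came from 1 model with both terms, and their interaction from a model with 4 groups. Benjamini-Hochberg adjustment covered all tested genes at 5%. Each library is 1 animal, so the tests set group differences against the spread between these animals. The most alike libraries still differed beyond sampling noise (mean chi-square of 7.45 per gene). Gene lengths are from GENCODE M21, and promoter windows from RefSeq (GRCm38.p6). The 9 genes had 26.5 to 433 counts per library, and their standard errors also carry the spread between animals.

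The 9 genes, the 48 pathway genes and the marker lists were chosen with earlier results of these data known. Named were all 9, pathway genes past the threshold or smallest in p in their list, and the 3 genes most like each of the 9. Some genes are not reported here. The test was tried on simulated counts. Alternatives were DESeq2 1.42.0, RLE and upper-quartile scaling, limma-voom (limma 3.58.1) with quality weights, no filter, a stricter filter, an age term, single-term models, leaving out each animal or empty-vector replicates 3, 4 and 5, limma on the authors' values, and, added after seeing the data, Cntf summed with U05342.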

Additional observations from a re-analysis of the deposited data

Results flagged for a closer look

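In 63 groups of the 9 genes' CPM values, 7 held 1 animal standing apart from the others in its group. The rule marks about 1 in 20 independent groups by chance. These groups share animals, so the 7 are not independent and cannot be weighed against that rate. Bdnf was 8.60 CPM in empty-vector replicate 2, with the next value at 4.11 CPM among all females and at 3.34 CPM among the empty-vector females. Gdnf was 13.95 CPM in empty-vector replicate 3, with the next at 8.24 CPM both among all empty-vector animals and among all females. Hand2 replicate 5 stood apart among the Hand2-vector females for 2 genes, with Ntf5 at 7.49 CPM (next 4.89) and Ntrk2 at 10.74 CPM (next 6.41). Ntrk2 was lowest in empty-vector replicate 10 among the empty-vector males, at 4.28 CPM, with the next at 7.13 CPM.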

How the results depend on the processing

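No paired analysis was possible because the labels pair no animals of the 2 groups and replicates were numbered by accession. None of the 9 genes passed the 5% threshold in any comparison under any alternative run, and Lifr passed under every one. Between the vectors DESeq2 called 1 gene, and leaving out 1 animal gave 0 to 1 genes. Between the sexes DESeq2 called 1276 genes, the fit without empty-vector replicates 3, 4 and 5 called 291, and leaving out 1 animal gave 476 to 952. The lowest of these counts came without empty-vector replicates 7 (476) and 3 (490) and Hand2 replicates 7 (508) and 6 (516). Upper-quartile scaling split the sex calls into 514 higher and 270 lower in males, against 406 and 380.

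Some log2 fold changes turned sign. Between the vectors, Gdnf was 0.050 without empty-vector replicates 3, 4 and 5. With limma-voom Nrtn was 0.050, Sema3a -0.070 and Ntrk2 -0.057, and on the authors' values Sema3a was -0.00082. Leaving out 1 animal gave -0.12 to 0.035 for Ntf3, -0.069 to 0.060 for Nrtn, -0.12 to 0.13 for Sema3a and -0.078 to 0.13 for Ntrk2. Between the sexes, Bdnf was 0.12 with an age term, Gfra1 was 0.014 with upper-quartile scaling, and without empty-vector replicates 3, 4 and 5 Ntf3 was -0.023 and Gfra1 0.079. Leaving out 1 animal gave -0.34 to 0.21 for Bdnf, -0.014 to 0.12 for Ntf3, -0.13 to 0.023 for Ntrk2 and -0.096 to 0.069 for Gfra1. For the interaction, Bdnf was -0.22 with limma-voom, and without empty-vector replicates 3, 4 and 5 Ntf5 was 0.060 and Gdnf -0.17. Leaving out 1 animal gave -0.47 to 0.48 for Bdnf, -0.50 to 0.18 for Ntf5 and -0.088 to 0.35 for Ntrk2. The cause of these turns was not tested. With 7 and 10 animals, the 95% intervals of the vector difference run from 0.424-fold to 1.69-fold over the 9 genes.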
